A study of Mus musculus with 8 samples.

Results

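Muscle contraction is started and ended by calcium. In a skeletal muscle fibre the voltage sensor of the surface membrane opens a calcium channel of the sarcoplasmic reticulum, the internal calcium store, and a pump then returns the calcium to the store. Fast fibres are known for a high content of the fast pump and of soluble calcium buffers, while slow fibres and heart use their own pump and buffer isoforms. The 10 genes described here carry these steps and were chosen by name. They are Cacna1s, Stac3, Ryr1 and Jph1 of the release apparatus, Atp2a1, Atp2a2 and Sln of the pump, and the calcium buffers Casq1, Casq2 and Pvalb. Each of the 10 was found once among the 20681 rows of the deposited table, and 10 of 10 passed the filter on low values (10 or more normalised reads in 4 or more of 8 libraries), as did 14949 rows in all.

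Poly-A RNA was sequenced from mouse knee joint tissue, 4 libraries with the label control and 4 with the label knockout. The gene named in the labels, Loxl2, encodes an enzyme that crosslinks collagen. Per the series text, the mice of both groups were Acan-Cre;Loxl2 fl/fl, that is loxP-flanked Loxl2 with a Cre recombinase driven by Acan, a gene of cartilage cells and not of muscle fibres. The control group is described as vehicle-treated, its library names carry LOXL2wt and those of the other group LOXL2ko. What the other group received in place of vehicle, and the age of the mice, are not given in the sources used here. All 8 library names carry DMM, commonly the abbreviation of a surgical meniscus injury model; the labels do not spell it out. The labels do not say whether each library is 1 animal, so p-values measure the spread between these libraries.

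The libraries held 13991000 to 17411617 reads assigned to genes. Values are normalised read counts, that is reads of a gene divided by a size factor of the library, and differences are log2 differences of the libraries labelled knockout from control. The count of the targeted gene was not lower in the libraries labelled knockout. Loxl2 had 282, 349, 1135 and 311 normalised reads in the control libraries (replicates 1 to 4, the order used throughout) and 893, 1468, 960 and 1518 in those labelled knockout (log2 difference 1.44, SE 0.40, limma adjusted p = 0.0294, with overlapping groups). These counts cover the whole gene in whole joint tissue, so they cannot show whether Loxl2 was lost in the cells that express Acan. The groups are therefore called by their labels. The joints held muscle throughout, since 18 reference genes of skeletal muscle with no member of the calcium set among them made up 14.9 ± 0.188% of a control library and 11.1 ± 1.20% of a library labelled knockout (SD, n = 4 each, exact permutation p = 0.0286). In bulk tissue, fewer muscle cells and less RNA per muscle cell cannot be told apart.

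The promoters of 6 of the 10 genes (Cacna1s, Casq1, Casq2, Ryr1, Atp2a1 and Pvalb) were matched in RefSeq on GRCm38.p6. Those of 3 genes that were lower together and of 1 that was not called are printed, 5′ to 3′ on the strand of the gene and ending before the first annotated transcribed base. Capitals mark CANNTG, the E-box, which myogenic and many other basic helix-loop-helix factors can bind. The windows are chr7:29125180-29125401 (minus strand) for Ryr1, chr7:126463109-126463323 (minus) for Atp2a1, chr1:172219896-172220145 (minus) for Casq1 and chr3:102086165-102086414 (plus) for Casq2.
Ryr1: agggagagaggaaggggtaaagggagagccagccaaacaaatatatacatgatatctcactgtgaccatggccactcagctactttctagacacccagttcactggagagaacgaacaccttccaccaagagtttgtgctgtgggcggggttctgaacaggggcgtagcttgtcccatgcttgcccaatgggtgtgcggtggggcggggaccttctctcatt
Atp2a1: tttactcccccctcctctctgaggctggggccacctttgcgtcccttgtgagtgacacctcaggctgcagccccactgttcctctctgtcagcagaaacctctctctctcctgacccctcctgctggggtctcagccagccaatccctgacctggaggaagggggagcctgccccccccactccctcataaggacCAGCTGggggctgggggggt
Casq1: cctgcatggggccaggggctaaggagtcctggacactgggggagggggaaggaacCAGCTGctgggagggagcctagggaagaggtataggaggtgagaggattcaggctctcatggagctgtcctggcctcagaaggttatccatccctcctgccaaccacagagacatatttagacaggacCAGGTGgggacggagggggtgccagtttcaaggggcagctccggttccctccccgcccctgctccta
Casq2: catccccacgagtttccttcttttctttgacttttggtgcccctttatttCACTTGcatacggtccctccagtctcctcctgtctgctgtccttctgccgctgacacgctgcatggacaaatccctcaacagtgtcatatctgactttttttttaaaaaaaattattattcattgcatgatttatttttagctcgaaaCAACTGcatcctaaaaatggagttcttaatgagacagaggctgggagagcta

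In these windows and in the 189 bases before Cacna1s, both strands searched, CANNTG stood 2 times in Casq1, Casq2 and Cacna1s, 1 time in Atp2a1 and 0 times in Ryr1. Of 32851 RefSeq promoter windows, each of 250 bases and so at least as long, 66.2% held it. The form CAGCTG, which is a subset of CANNTG, stood in Cacna1s, Casq1 and Atp2a1, and in 13.0% of all windows. The MEF2 motif was found in Casq2 and in 1 of the 2 windows of Pvalb, against 2.92% of all windows. These matches describe letters only, and the window of Ryr1, the gene with the lowest log2 difference of the 10, held none of these 3 motifs.

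Across the set, 7 of 10 genes were lower in the libraries labelled knockout at a limma adjusted p under 0.05 and 0 were higher, where 11.6% of all tested genes were called lower, 11.6% higher and 23.2% in either direction. The 7 were the release genes Cacna1s, Stac3, Ryr1 and Jph1, the fast pump gene Atp2a1, and the buffer genes Casq1 and Pvalb. In each of them every library labelled knockout lay below every control library, a pattern that 13.4% of all tested genes showed, with 11.7% separate in the other direction. Of the 18 muscle reference genes, 16 were separate in the same way and 7 were called lower. The median log2 difference of the 10 genes was -0.68, beside 0.00 for all tested genes and -0.59 for the 18 muscle reference genes. The slow and cardiac forms Atp2a2 and Casq2 and the pump inhibitor Sln were not called. Together the 10 genes held 3.58 ± 0.285% of a control library and 2.28 ± 0.270% of a library labelled knockout (SD, n = 4 each, exact permutation p = 0.0286, the smallest that 4 against 4 libraries allow).

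**Figure D1:**
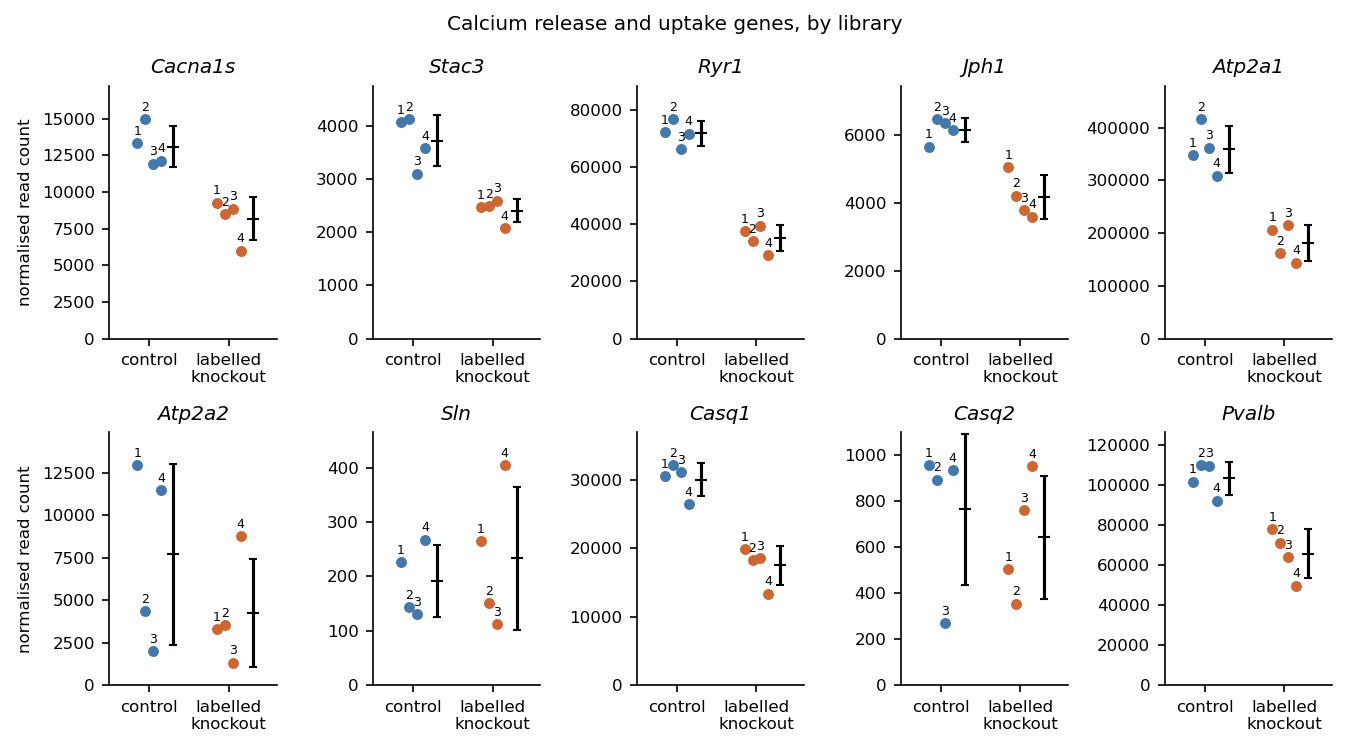
Normalised read count of each of the 10 genes (vertical axes, from 0), with 1 numbered point per library (the replicate number), control in blue and labelled knockout in orange, and the mean ± SD at the right of each group (n = 4). The groups are separate for Cacna1s, Stac3, Ryr1, Jph1, Atp2a1, Casq1 and Pvalb and overlap for Atp2a2, Sln and Casq2.

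Ryr1 encodes the ryanodine receptor of skeletal muscle, the channel through which the store empties (chromosome 7, 29003344 to 29125179, minus strand, mm10). Its value was 72400, 77017, 66469 and 71902 in the control libraries and 37582, 34258, 39614 and 29238 in those labelled knockout. The control libraries lay close together, and the highest library labelled knockout stood well below the lowest of them. The mean was 71947 ± 4317 against 35173 ± 4531 (SD, n = 4 each), so that 48.9% of the control level remained. The log2 difference was -1.04 (SE 0.15, limma adjusted p = 0.00399), lower than that of 17 of the 18 muscle reference genes, the exception having the value of -1.07 (Myh4). Of all tested genes, 1.10% had a lower log2 difference.

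Cacna1s encodes the pore-forming subunit of the voltage sensor that opens the ryanodine receptor (chromosome 1, 136052750 to 136119822, plus strand). Its value was 13330, 14972, 11920 and 12131 in the control libraries and 9272, 8497, 8849 and 6001 in those labelled knockout. The groups were separate, with knockout replicate 4 lowest. The log2 difference of Cacna1s was -0.70 (SE 0.15, limma adjusted p = 0.0115).

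Stac3 encodes an adaptor protein that the voltage sensor needs to reach the membrane and to couple to the channel (chromosome 10, 127501686 to 127508823, plus strand). Control libraries held 4075, 4136, 3103 and 3591 normalised reads of Stac3 and libraries labelled knockout 2475, 2488, 2595 and 2083. Its libraries labelled knockout were tight, at 2410 ± 225, and the log2 difference was -0.62 (SE 0.11, limma adjusted p = 0.00723). Jph1 encodes junctophilin, which ties the store to the surface membrane (chromosome 1, 16964560 to 17097889, minus strand). Its value was 5667, 6487, 6355 and 6147 in control and 5071, 4217, 3800 and 3595 in the libraries labelled knockout. Jph1 had the smallest fall of the 7 called genes, a log2 difference of -0.57 (SE 0.11, limma adjusted p = 0.00949), and its groups came closest in knockout replicate 1 and control replicate 1.

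Atp2a1, the calcium pump of fast fibres also called SERCA1, was by count the most abundant of the 10 (chromosome 7, 126445858 to 126463108, minus strand). It held 348062, 416728, 362096 and 309259 normalised reads in the control libraries and 206268, 162053, 215163 and 143636 in those labelled knockout. No library labelled knockout reached a control value, and the mean fell to 50.6% of control. This gene alone took 2.16 ± 0.236% of a control library and 1.29 ± 0.186% of a library labelled knockout (SD, n = 4 each, exact permutation p = 0.0286). The log2 difference of Atp2a1 was -0.99 (SE 0.26, limma adjusted p = 0.0245). Dropping single libraries ended that call in 5 of 8 fits. The limma adjusted p was 0.0539, 0.0689 and 0.0528 when control replicates 1, 2 and 4 were dropped in turn, and 0.0710 and 0.0513 for knockout replicates 2 and 4. With the replicate number as a block it was 0.0817.

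Atp2a2 encodes SERCA2, the pump of slow fibres and heart, with a second form made in most other cells (chromosome 5, 122453513 to 122502225, minus strand). Its value was 12934, 4351, 2002 and 11475 in the control libraries and 3308, 3519, 1320 and 8779 in those labelled knockout. The groups overlapped almost completely, and in both groups replicate 3 was lowest. The spread was 69.3% of the mean in control and 75.4% in the group labelled knockout, against 5.83% to 18.9% for the 7 called genes. Its log2 difference, -0.81, therefore carried a wide error (SE 0.66, limma adjusted p = 0.395). It was -1.34 without control replicate 3, -1.27 without knockout replicate 4, -0.45 and -0.50 with control replicates 1 and 4 dropped in turn, and -0.36 without knockout replicate 3, with no call in any of these fits.

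Sln encodes sarcolipin, a small membrane protein that inhibits the pump (chromosome 9, 53850164 to 53854560, plus strand). It was the least abundant of the 10, with 226, 143, 130 and 267 normalised reads in control and 265, 151, 112 and 404 in the libraries labelled knockout. The highest and the lowest library both carried the knockout label. Its log2 difference was 0.17 (SE 0.39, limma adjusted p = 0.777) and turned to -0.15 without knockout replicate 4.

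Casq1 encodes calsequestrin 1, the main calcium-binding protein inside the store of skeletal fibres (chromosome 1, 172209894 to 172219868, minus strand). Its value was 30549, 32168, 31148 and 26524 in control and 19899, 18264, 18577 and 13365 in the libraries labelled knockout, with separate groups. The mean of Casq1 fell to 58.2% of control, a log2 difference of -0.79 (SE 0.14, limma adjusted p = 0.00750). Casq2 encodes the calsequestrin of heart and slow fibres (chromosome 3, 102086415 to 102146514, plus strand). Control libraries held 953, 891, 269 and 933 normalised reads of Casq2 and libraries labelled knockout 502, 352, 759 and 949. Control replicate 3 was the lowest of all 8 libraries, and the groups overlapped. Its log2 difference was -0.19 (SE 0.43, limma adjusted p = 0.782) and 0.07 without knockout replicate 2.

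Pvalb encodes parvalbumin, a soluble buffer that takes up calcium in fast fibres and is also made by some neurons (chromosome 15, 78191114 to 78206400, minus strand). Its value was 101694, 109863, 109775 and 92173 in control and 77950, 71272, 63913 and 49673 in the libraries labelled knockout. The groups were separate, with knockout replicate 4 again lowest, as it was for all 7 called genes. The log2 difference of Pvalb was -0.67 (SE 0.19, limma adjusted p = 0.0297), and this call was the least firm of the 7. Of 8 fits with 1 library dropped, it was kept in 2 (knockout replicate 1 or 3 dropped). In the other 6 the limma adjusted p was 0.0606, 0.0798, 0.0576 and 0.0555 with control replicates 1 to 4 dropped in turn, and 0.0531 and 0.0626 with knockout replicates 2 and 4 dropped. With the replicate number as a block it was 0.0728. Cacna1s, Stac3, Ryr1, Jph1 and Casq1 stayed called in each of these fits.

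Reads of overlapping genes may bear on some of these counts, because the use of strand in counting is not given in the sources used here. Their effect was not measured. In GENCODE M21, 21.9% of the exon bases of Atp2a1 are shared with Rabep2 on the opposite strand, 19.98% of those of Cacna1s with 2 predicted gene models, 1 on each strand, and 8.00% of those of Casq1 with a gene model opposite to it. The share was 4.19% for Ryr1 and at most 1.36% for the other 6 genes.

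Levels of different genes can be compared only per length, here as normalised reads per kilobase of annotated exon. In control libraries Atp2a1 held 103260 ± 12793 and Pvalb 99305 ± 8063, and these 2 overlapped, as they also did in the libraries labelled knockout, where Pvalb had the higher mean (63114 ± 11649 against 52281 ± 9905). Casq1 followed at 15427 ± 1268 reads per kilobase in control, then Ryr1 at 3295 ± 198 and Cacna1s at 1998 ± 214 (SD, n = 4 each), each separate from the next. Stac3 at 1465 ± 189, Atp2a2 at 1265 ± 877 and Jph1 at 1233 ± 71.9 were not separate from each other, and the range of Atp2a2, from 329 to 2127, also reached that of Cacna1s. At the low end, Casq2 at 278 ± 120 and Sln at 145 ± 50.03 overlapped. The first 6 places in the libraries labelled knockout held the same genes, with Pvalb and Atp2a1 exchanged.

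To set the calcium genes against the muscle in each joint, every library was rescaled so that the mean log2 value of the 18 muscle reference genes was equal in all 8. Among the 18, Tnnc2 was barely measured, at 11.9 ± 3.37 normalised reads in control and 12.2 ± 5.55 in the libraries labelled knockout (SD, n = 4 each). The geometric mean of the 18 lay between 35284 and 71382 in the 8 libraries. The rescaling moved the median over all tested genes from 0.00 to 0.59 (log2 difference), so that 57% of them were called, 56.7% higher and 0.281% (42 genes) lower. On this muscle scale 2 of the 10 calcium genes remained lower by limma, Ryr1 and Atp2a1, and the median of the 10 was -0.09. Ryr1 held 62337, 57785, 54419 and 59472 in the control libraries and 42964, 40767, 43853 and 44381 in those labelled knockout. The groups stayed separate, at 58503 ± 3308 in control and 42991 ± 1594 in the libraries labelled knockout (SD, n = 4 each). The log2 difference of Ryr1 was -0.44 (SE 0.11, limma adjusted p = 0.00601), and it was called in each of the 15 alternatives on this scale, with adjusted p-values from 0.00390 to 0.0218.

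Atp2a1 on the muscle scale held 299687, 312669, 296452 and 255794 in control and 235808, 192839, 238185 and 218025 in the libraries labelled knockout. The groups did not overlap, and the log2 difference was -0.40 (SE 0.14, limma adjusted p = 0.0288). This call rested on single choices, since it was lost in 7 of 15 alternatives. The adjusted p was 0.0620, 0.0908 and 0.0555 with control replicates 1, 2 and 3 dropped in turn, and 0.0633 and 0.101 with knockout replicates 2 and 4 dropped. It was 0.0524 with no filter on low values and 0.0828 when the muscle list was summed in place of averaged on the log2 scale. The reference genes themselves ranged on this scale from -0.47 to 0.54, a range that holds both Ryr1 and Atp2a1, and 1 of the 18 (Pygm) was called lower.

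For the other 8 genes the muscle scale gave no call. Casq1 was at -0.20 ± 0.11 (SE, limma adjusted p = 0.128), Cacna1s at -0.10 ± 0.11, Pvalb at -0.07 ± 0.12, Stac3 at -0.03 ± 0.12 and Jph1 at 0.02 ± 0.12. The signs of Pvalb, Stac3 and Jph1 turned under some of the alternatives. Atp2a2 stood at -0.22 with a standard error of 0.68, Casq2 at 0.41 with 0.44, and Sln at 0.76 with 0.43 (limma adjusted p = 0.145). Sln was called higher on the muscle scale without knockout replicate 3 (1.11, limma adjusted p = 0.0369) and with the replicate block (adjusted p = 0.0235), and its value was 0.34 without knockout replicate 4 (adjusted p = 0.440). With all 8 libraries and no block, 56.7% of all tested genes were called higher on this scale. The median log2 difference over all tested genes was then 0.59, so a higher value of Sln is not particular to it.

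**Figure D2:**
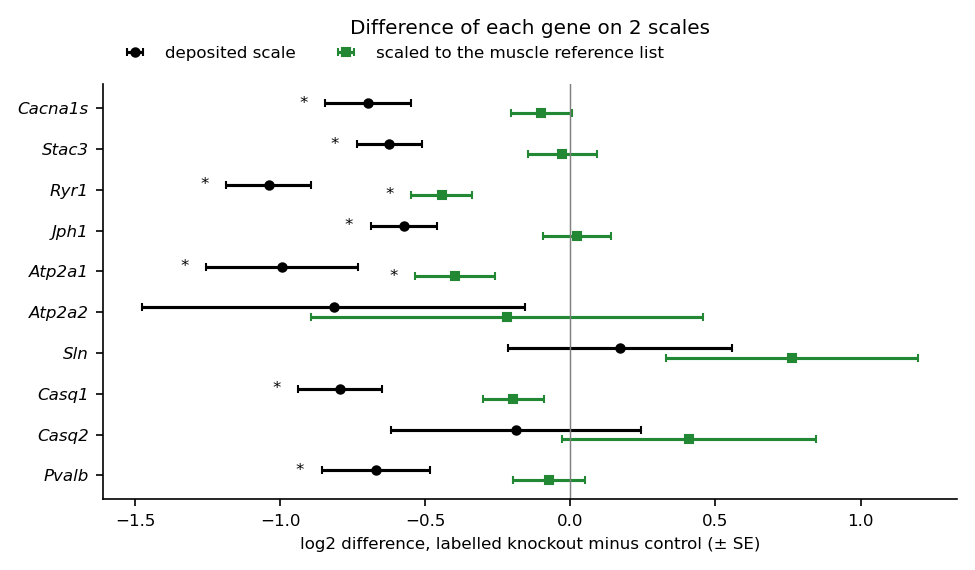
Log2 difference of each gene (horizontal axis, labelled knockout minus control, ± SE) on the deposited scale (black circles) and after scaling each library to the muscle reference list (green squares), with an asterisk at a limma adjusted p under 0.05. The 7 asterisks of the deposited scale are reduced to those of Ryr1 (-0.44) and Atp2a1 (-0.40) on the muscle scale.

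Ratios between members within a library are free of the library scaling, and 4 were compared by exact two-sided permutation. The ratio of Ryr1, the release channel, to Cacna1s, its voltage sensor, was 5.43, 5.14, 5.58 and 5.93 in the control libraries and 4.05, 4.03, 4.48 and 4.87 in those labelled knockout. The groups were separate, and the log2 ratio differed by -0.34 (exact permutation p = 0.0286, adjusted over the 4 ratios 0.114). Each of the 4 libraries labelled knockout lay below every control library, and over the 10 alternatives the difference ranged from -0.40 to -0.31. Leaving out any control library gave an exact permutation p of 0.0571.

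No ratio passed after adjustment, and the groups overlapped for the other 3. Atp2a1 to Atp2a2, the fast against the slow pump, ran from 26.9 to 181 in the control libraries and from 16.4 to 163 in those labelled knockout, and its log2 difference of -0.18 (exact permutation p = 0.943, adjusted 0.943) changed sign without control replicate 2 or 3 or knockout replicate 4. The ratio of Casq1 to Casq2 lay between 28.4 and 115 in control and between 14.1 and 51.7 in the group labelled knockout (log2 difference -0.61, exact permutation p = 0.429, adjusted 0.571). That difference was -0.14 without control replicate 3 and -0.26 without knockout replicate 4. Sln to Atp2a1, the inhibitor against the pump, had a log2 ratio of -10.9 ± 0.651 in control and -9.76 ± 1.01 in the group labelled knockout (SD, n = 4 each). Its difference of 1.16 gave an exact permutation p of 0.114 (adjusted 0.229); the difference was 0.74 without knockout replicate 4.

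**Figure D3:**
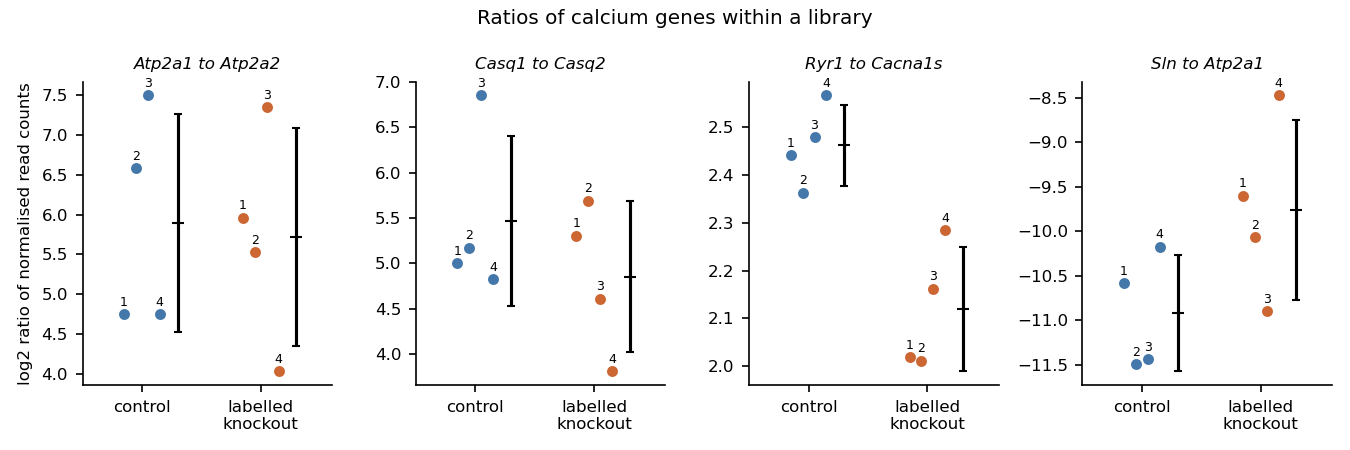
Log2 ratio of normalised read counts for 4 pairs of genes (vertical axes, each with its own range), with 1 numbered point per library and the mean ± SD beside each group (n = 4). Of the 4 panels, that of Ryr1 to Cacna1s has separate groups, between 2.36 and 2.57 in control and between 2.01 and 2.28 in the libraries labelled knockout.

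The genes Atp2a2, Casq2 and Sln varied most within the groups, so their levels were set beside those of slow fibres. The slow fibre list (Myh7, Tnnt1, Tnni1, Tnnc1, Myl2, Myl3 and Myoz2) had a geometric mean of 4128, 1675, 342 and 3786 normalised reads in the control libraries and 1121, 777, 240.0 and 3012 in those labelled knockout. It was high in replicates 1 and 4 of control and in replicate 4 of the other group, and lowest in replicate 3 of each. Of its 7 genes 0 were called, with log2 differences from -1.39 to -0.60, and the groups overlapped for each.

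Over the 8 libraries, log2 Atp2a2 followed this list closely (Pearson r = 0.980, exact permutation p = 7.4e-05; Spearman rho = 0.976, exact permutation p = 0.000397). Without replicate 3 of either group, the 2 libraries farthest from the median, r was 0.964 over 6. Sln followed it less closely (r = 0.777, exact permutation p = 0.0277; rho = 0.738, exact permutation p = 0.0458), and r dropped to 0.534 without those 2 libraries, on which the relation rests. For Casq2, r was 0.657 (exact permutation p = 0.0803) and rho 0.833 (exact permutation p = 0.0154). Its r was 0.908 without the same 2 libraries, of which knockout replicate 3 had 759 normalised reads of Casq2 at the lowest level of the list. Adjusted over these 3 relations, Pearson p-values were 0.000223 for Atp2a2, 0.0415 for Sln and 0.0803 for Casq2, and Spearman p-values were 0.00119, 0.0458 and 0.0231. With 4 libraries a group, these 3 relations are not given for each group alone. The 3 genes and the slow fibre list were paired after their values had been seen, which the adjustment over 3 relations does not cover. Group means were not subtracted for these relations, so differences between the groups enter them too.

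**Figure D4:**
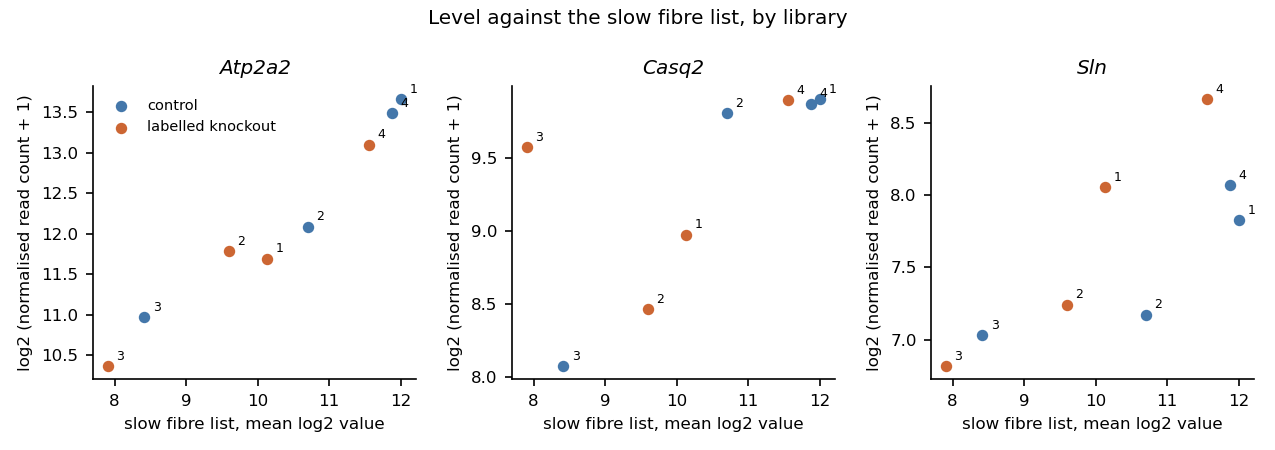
Log2 (normalised read count + 1) of Atp2a2, Casq2 and Sln (vertical axes) against the mean log2 value of the 7 slow fibre genes (horizontal axes), 1 numbered point per library, control in blue and labelled knockout in orange. Atp2a2 lies near a line through both groups, while knockout replicate 3 stands off from the other libraries for Casq2.

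Once the group means were subtracted, the 7 called genes moved together within groups, with a median Pearson r of 0.77 over their 21 pairs (0.16 to 0.95). The 3 uncalled genes had 0.48 to 0.87 among their 3 pairs, and the 21 pairs between the sets had a median of -0.46. These correlations are over 8 libraries and are a description. The libraries differed in depth and in muscle content, with the muscle reference genes at 9.44% to 15.1% of a library. The part of these differences in the correlations was not tested. Among 14927 other tested genes, the one most like Atp2a2 by this measure was Myl2, a slow fibre gene (r = 0.99). The closest to Cacna1s was Scn4a, the sodium channel of skeletal muscle (0.98, log2 difference -0.92), and the closest to Ryr1 was Vamp1 (0.99, log2 difference -0.48). For the rest, with r from 0.97 to 0.99, they were Ccdc130 for Stac3 (log2 difference 0.13), Rpl38 for Jph1 (-0.18) and Iqcc for Atp2a1 (-0.47). Golt1b was closest to Sln (0.49), Sncaip to Casq1 (0.67), Aven to Casq2 (-0.12) and Rpl37 to Pvalb (-0.13). Golt1b and Sncaip were called higher (limma adjusted p = 0.00707 and 0.0162), Sncaip thus opposite to Casq1. So short a profile finds such partners easily, since each of the 10 genes had between 4 and 18 genes above 0.95.

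Other genes of the calcium pathway were taken from 6 lists of 75 genes, of which 69 were tested. Of these, 28 were called lower and 7 higher by limma on the deposited scale, and 3 lower and 25 higher on the muscle scale. Over all tested genes the shares were 11.6% in each direction on the deposited scale, and 0.281% lower and 56.7% higher on the muscle scale. The 7 of 69 called higher on the deposited scale are therefore near the share of all genes, and the 25 of 69 on the muscle scale below it. Among 20 partners of the triad, the junction where the surface membrane meets the store, 14 were called lower and 0 higher, with a median log2 difference of -0.52. Tmem38a, a potassium channel of the store membrane, fell from 20942 ± 1674 to 12511 ± 1145 (SD, n = 4 each, log2 difference -0.74, limma adjusted p = 0.00438). Speg, a kinase of the triad (-0.66, limma adjusted p = 0.00539), and Cacng1, the gamma subunit of the voltage sensor (-0.68, adjusted p = 0.00619), were also lower. On the muscle scale 0 of the 20 were called lower and 4 higher (Asph, Fkbp1a, Calm2 and Mtm1), where 56.7% of all tested genes were called higher, and the median was 0.07. Asph, which encodes the triad protein junctin, was thus called in opposite directions on the 2 scales (-0.34 and 0.26).

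Among 10 tested pump regulators and other proteins of the reticulum, 6 were called lower, 0 higher, against 11.6% of all tested genes in each direction. Camk2a and Camk2b, subunits of a calcium-activated kinase, had log2 differences of -0.90 and -0.91 (limma adjusted p = 0.00397 and 0.00438). Srl, which encodes the store protein sarcalumenin, had -0.86 (limma adjusted p = 0.00397). These 3 were also the pathway genes that were called lower on the muscle scale, where 0.281% of all tested genes were. They stood at -0.31 for Camk2a, -0.32 for Camk2b and -0.26 for Srl (limma adjusted p = 0.0241, 0.0462 and 0.0499). The muscle reference genes ranged on this scale from -0.47 to 0.54, a range that holds all 3. Whether these calls hold under the alternatives is not given here, and those of Camk2b and Srl lay close to the limit of 0.05.

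Calcium entry and extrusion at the surface gave 3 lower and 1 higher of 11 tested, against 11.6% of all tested genes in each direction, so that the 1 higher is near the share of all genes. Stim1, the store calcium sensor (-0.69, limma adjusted p = 0.00456), and Slc8a3, a sodium-calcium exchanger (-0.59, adjusted p = 0.0111), were lower, as was the calcium pump gene Atp2b3 (-0.80). Orai2, a channel of store-operated entry, was higher, at 79.8 ± 36.6 in control and 192 ± 43.6 in the libraries labelled knockout (log2 difference 1.34, limma adjusted p = 0.0148). Of 8 genes of mitochondrial calcium uptake 3 were called lower and 1 higher, the latter again near the 11.6% of all tested genes. Smdt1 (-0.35, limma adjusted p = 0.0201) and Mcur1 (-0.33, adjusted p = 0.0210), which regulate the mitochondrial uniporter, were among the lower ones, and Mcub, its inhibitory subunit, the higher one (adjusted p = 0.0346).

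Of 9 genes of calcineurin signalling, a calcium-dependent phosphatase pathway, 2 were called lower and 1 higher, counts close to the 11.6% of all tested genes in each direction. Ppp3cb and Ppp3r1, phosphatase subunits, had -0.47 and -0.30 (limma adjusted p = 0.0115 and 0.0285), while Nfatc4, a transcription factor of the pathway, rose from 243 ± 72.2 to 555 ± 115 (log2 difference 1.22, limma adjusted p = 0.00790). The list of relatives of the 10 genes used in other cells had 0 lower and 4 higher of 11 tested, with a median of 0.63 on the deposited scale. Itpr3, a store release channel of non-muscle cells, was at 257 ± 41.9 in control and 407 ± 28.1 in the libraries labelled knockout (log2 difference 0.67, limma adjusted p = 0.00897). Cacna1c, the related voltage-gated channel of heart and smooth muscle (0.63, limma adjusted p = 0.0216), the release channel gene Itpr2 (0.46, adjusted p = 0.0481) and the junctophilin gene Jph4 (2.03, adjusted p = 0.00822) were also higher, Jph4 from a level near 0 (6.999 ± 4.20 normalised reads in control).

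**Figure D5:**
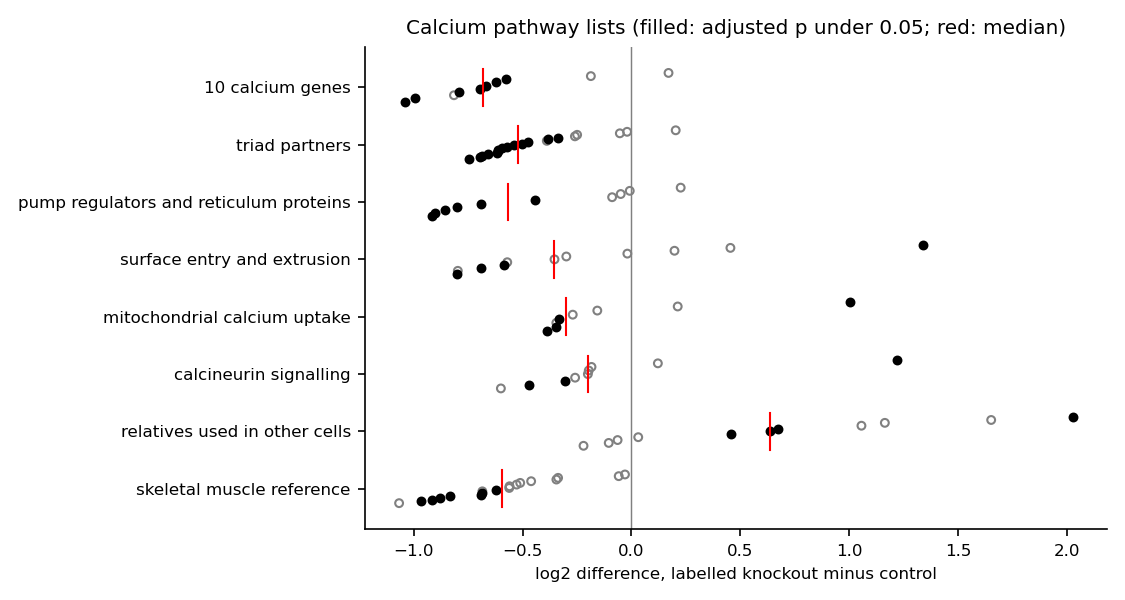
Log2 difference of single genes (horizontal axis, labelled knockout minus control) for the 10 calcium genes, 6 calcium pathway lists and the muscle reference list, with filled points at a limma adjusted p under 0.05 and a red bar at the median of each list. The medians of the 10 genes (-0.68), triad partners (-0.52) and muscle reference (-0.59) lie to the left of 0, and that of the relatives used in other cells (0.63) to the right.

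Most macrophage, fibroblast and osteoclast markers were called higher, where 11.6% of all tested genes were called higher and 11.6% lower. All 7 macrophage markers were called higher and the groups were separate for each, with summed values of 1114 to 2528 in control and 3976 to 5573 in the libraries labelled knockout. Of 8 fibroblast markers 6 were called higher (sums of 38243 to 115853 and 143902 to 231295), and of 6 osteoclast markers 6 (1837 to 13753 and 10078 to 38508). The groups were separate for 3 of the 8 fibroblast markers and 1 of the 6 osteoclast markers, and overlapped for the others. Of all tested genes, 11.7% were separate in this direction. The part of these 3 cell types in the lower values of the calcium genes was not tested. Of 8 cartilage markers 1 (Hapln1) was called higher, near the 11.6% of all tested genes. The cartilage sums were 3576 to 9207 in control and 9367 to 14129 in the other group, and Acan and Col2a1 were present in all 8 joints. Of the heart markers, Nppa and Myl7 had no row in the table. The 4 heart markers in the table summed to 268 to 2478 in control and 481 to 945 in the libraries labelled knockout, with 0 called. Of 6 smooth muscle markers 1 (Lmod1) was called lower, not far from the share of all genes, and 0 higher. Erythroid markers (0 of 6 called) and nerve markers (0 of 4) overlapped between the groups, with erythroid sums of 16673 to 98652 in control and 4023 to 42386 in the libraries labelled knockout.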

How the data were processed

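Poly-A RNA libraries of 8 mouse knee joint samples were grouped by their titles. Per the series text and the submitters' processing notes, the authors aligned reads to mm10 with HISAT2, counted them per gene with featureCounts and normalised them with DESeq2; versions, annotation, strand use and filters are not given in the sources used here. The deposited values are a normalised signal. In each column 100% of them were whole multiples (within 0.01) of 1 step, which gave back the reads; for 2 libraries this step (1.01 for control replicate 2, 0.997 for knockout replicate 1) is near 1, so wholeness tells little there. Of the value columns, 0 were unmapped.

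Values were fitted as log2(value + 1) with limma 3.58.1 (eBayes with trend), and p-values adjusted by Benjamini-Hochberg over the 14949 genes that reached 10 in 4 or more libraries; a call is an adjusted p under 0.05, and fold changes are on that scale. Single values had exact permutation tests over 70 assignments. Of the names, 99.2% matched GENCODE M21. By rule the text names the 10 genes, up to 3 called genes of smallest p per pathway list and the gene most like each member; Atp2b3, Mcub, Itpr2, Asph, Fkbp1a, Calm2, Mtm1, Hapln1 and Lmod1 were named after their values were seen. One gene that the rule names is not reported here. The members and lists were chosen with earlier results of these data known. Alternatives were pseudocounts, filters, scalings, edgeR 4.0.16, DESeq2 1.42.0, the replicate block and leaving out each library. The count tests on the recovered reads called 3324 genes with edgeR and 4125 with DESeq2, beside 3461 with limma. The fitting scripts were tested on simulated data in which 198 of 14743 genes were changed. Of 165 genes called by limma 10 were false, of 164 by edgeR 8 and of 202 by DESeq2 34. The limma fit found 63.6% of the simulated log2 differences of size 1 and 92.9% of those of size 2.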

Additional observations from a re-analysis of the deposited data

Results flagged for a closer look

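In control replicate 3 the normalised read count of Casq2 was 269, far from the other control libraries at 891 to 953. The same library had a log2 ratio of Casq1 to Casq2 of 6.85, where the other 3 control libraries had 4.83 to 5.17. Each was flagged because its gap to the nearest library took up more of the group's range than Dixon's critical value for 4 samples allows. Chance flags about 1 in 20 groups, and 28 groups were examined. The slow fibre list was also lowest among control libraries in control replicate 3, at 342 against 1675 to 4128; its part in the low Casq2 value was not tested.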

How the results depend on the processing

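The count of calcium genes called on the deposited scale stayed between 5 and 7 over 17 alternatives, all of them lower, and Cacna1s, Stac3, Ryr1, Jph1 and Casq1 were among those called in each. Over all tested genes 3461 were called, 2018 with the replicate block, and from 1751 to 3841 when 1 library was left out (1887 and 2194 with control replicates 2 and 4 dropped, 1751 with knockout replicate 4 dropped). On the muscle scale 2 calcium genes were called, 1 with no filter on low values, 1 with the summed muscle list, and 1 to 3 when 1 library was left out. The reference gene Tnnc2 had few reads, and its exon bases are shared to 74% with a gene on the opposite strand. Taking Tnnc2 off the muscle list left 2 called (an alternative chosen after seeing the data). Signs that turned belonged to uncalled values, and the cause was not tested. On the muscle scale these were Stac3 (0.062 with the summed list, 0.0056 with Tnnc2 off the list) and Pvalb (0.016 with the summed list). When 1 library was left out, the log2 difference on the deposited scale ran from -0.15 to 0.46 for Sln and from -0.63 to 0.067 for Casq2. On the muscle scale it ran from -0.11 to 0.046 for Stac3, from -0.041 to 0.11 for Jph1, from -0.77 to 0.29 for Atp2a2 and from -0.032 to 0.68 for Casq2. The difference in the log2 ratio of Atp2a1 to Atp2a2 ran from -0.72 to 0.38 and that of Ryr1 to Cacna1s from -0.40 to -0.31. Over all tested genes, same-numbered libraries did not deviate together (correlations of 0.21, -0.12, -0.23 and -0.06 for numbers 1 to 4). The numbers are therefore not taken to pair them. For single members the numbers ran alike, since Sln had the same order in both groups and Atp2a2 was lowest in number 3 of each. With the replicate block, 5 calcium genes were called on the deposited scale and 3 on the muscle scale. Sln was among the 3, called higher on a scale where 56.7% of all tested genes were called higher without the block. The limma adjusted p of Atp2a2 on the deposited scale was 0.0828 with the block, beside 0.395 without it.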
